A study of Homo sapiens with 6 samples.

Results

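The genes described here are those that carry a numbered CD name, the cluster of differentiation numbers under which antibody-defined surface antigens of blood cells are catalogued. They were chosen by name alone, as every row of the deposited count table whose gene symbol is CD followed by digits and at most 1 letter, with CD34 and CD44 left out. The rule found 40 of the 14821 genes in the table, and 38 of these were among the 14203 genes tested. CD93 and CD38 had too few counts for the test. Messenger RNA had been sequenced from F36P, a human acute erythroid leukaemia cell line, in 3 libraries of cells carrying the retrovirus MSCV-PIG-AM-ERG (ERG) and 3 libraries of cells carrying the empty retrovirus MSCV-PIG (vector, with genotype WT in the labels). Both groups had spent 4 days in puromycin at 1 µg/ml before harvest. ERG belongs to the ETS transcription factors, and the question put by the submitters was how it blocks erythroid differentiation. All libraries come from a single cell line. The labels call them biological replicates but do not say whether these were separate transductions. The p-values therefore refer only to variation among these 6 libraries, which may be technical.

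CD numbers group proteins by how they are detected, not by function, so the set spans unrelated families: antigen receptor chains, tetraspanins, complement inhibitors, scavenger receptors and the ligands of T cell costimulation. Diagnostic panels read lineage from them, with CD7 on T and NK cells, CD79A on B cells and CD33 on myeloid cells. Leukaemic blasts often carry antigens of more than 1 lineage. The table reports RNA, and surface protein was not measured. Fewer cells of a type and less RNA per cell cannot be told apart in such bulk samples.

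Total counts per library ranged from 10257141 to 14803031, of which the 40 genes took 0.424% to 0.591%. ERG itself had 97.4, 103 and 104 CPM with ERG, against 28.1, 14.6 and 22.4 CPM with vector (edgeR adjusted p = 0.011). CPM are read counts scaled to a common library size with TMM factors. Of red cell markers of this erythroid line, the erythropoietin receptor EPOR was at 147 CPM with ERG and 362 CPM with vector. The Rh-associated glycoprotein RHAG was at 538 CPM with ERG and 626 CPM with vector. Some others were lower, such as the anion exchanger SLC4A1 at 11.3 CPM with ERG and 64.8 CPM with vector. RHAG and SLC4A1 did not pass (edgeR adjusted p = 0.633 and 0.0732). Of 15 tested red cell antigens, 11 had negative and 4 positive log2 differences, against 7262 and 6941 of all 14203 tested genes. Among the 4 were RHCE (21.2 CPM with ERG, 13.5 CPM with vector) and BCAM (5.19 CPM with ERG, 1.92 CPM with vector), both without overlap of the groups. The platelet integrin chain ITGA2B was at 1496 CPM with ERG and 762 CPM with vector, but its groups overlapped and it did not pass (edgeR adjusted p = 0.209). The lineage of the line was not tested. ERG replicates 1 and 2 lay far closer together than any other pair, with a chi-square of 2.20 per degree of freedom, against 21.6 to 86.9 for the other 14 pairs. The libraries also fell into 2 sets that cut across the groups, ERG replicates 1 and 2 with vector replicate 1 (set A), and ERG replicate 3 with vector replicates 2 and 3 (set B). The sets were defined from these data. Results are therefore also given within each set and from a model that includes a set term.

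CD24, CD63, CD4, CD164, CD82 and CD151 were among the most abundant numbered antigens in F36P cells. CPM values were divided by the exon length of each gene (GENCODE release 29) to compare genes. CD24, a mucin-like GPI-anchored protein of B cell precursors, granulocytes and young red cells, was at 362 CPM per kb in ERG and 348 CPM per kb in vector libraries. Its counts are uncertain because CD24 has annotated pseudogene copies. The lysosomal and granule tetraspanin CD63 followed with 134 CPM per kb in ERG and 152 in vector libraries. CD4, the helper T cell coreceptor that monocytes and some progenitors also carry, was at 76.1 CPM per kb in ERG and 72.4 in vector libraries. The sialomucin CD164 was at 62.9 CPM per kb in ERG and 65.2 in vector libraries, the tetraspanin CD82 at 60.7 in ERG and 42.3 in vector libraries, and CD151 at 51.0 in ERG and 74.8 in vector libraries. For reference, the median over 12798 tested genes with a length was 6.53 CPM per kb in ERG and 6.49 in vector libraries, and 28 and 24 of the numbered antigens lay above it. CD4 was above CD164 in all 3 ERG libraries (lowest CD4 value 74.4, highest CD164 value 65.4 CPM per kb), whereas in vector libraries the 2 genes overlapped. CD164 and CD82 overlapped in ERG libraries.

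**Figure D1:**
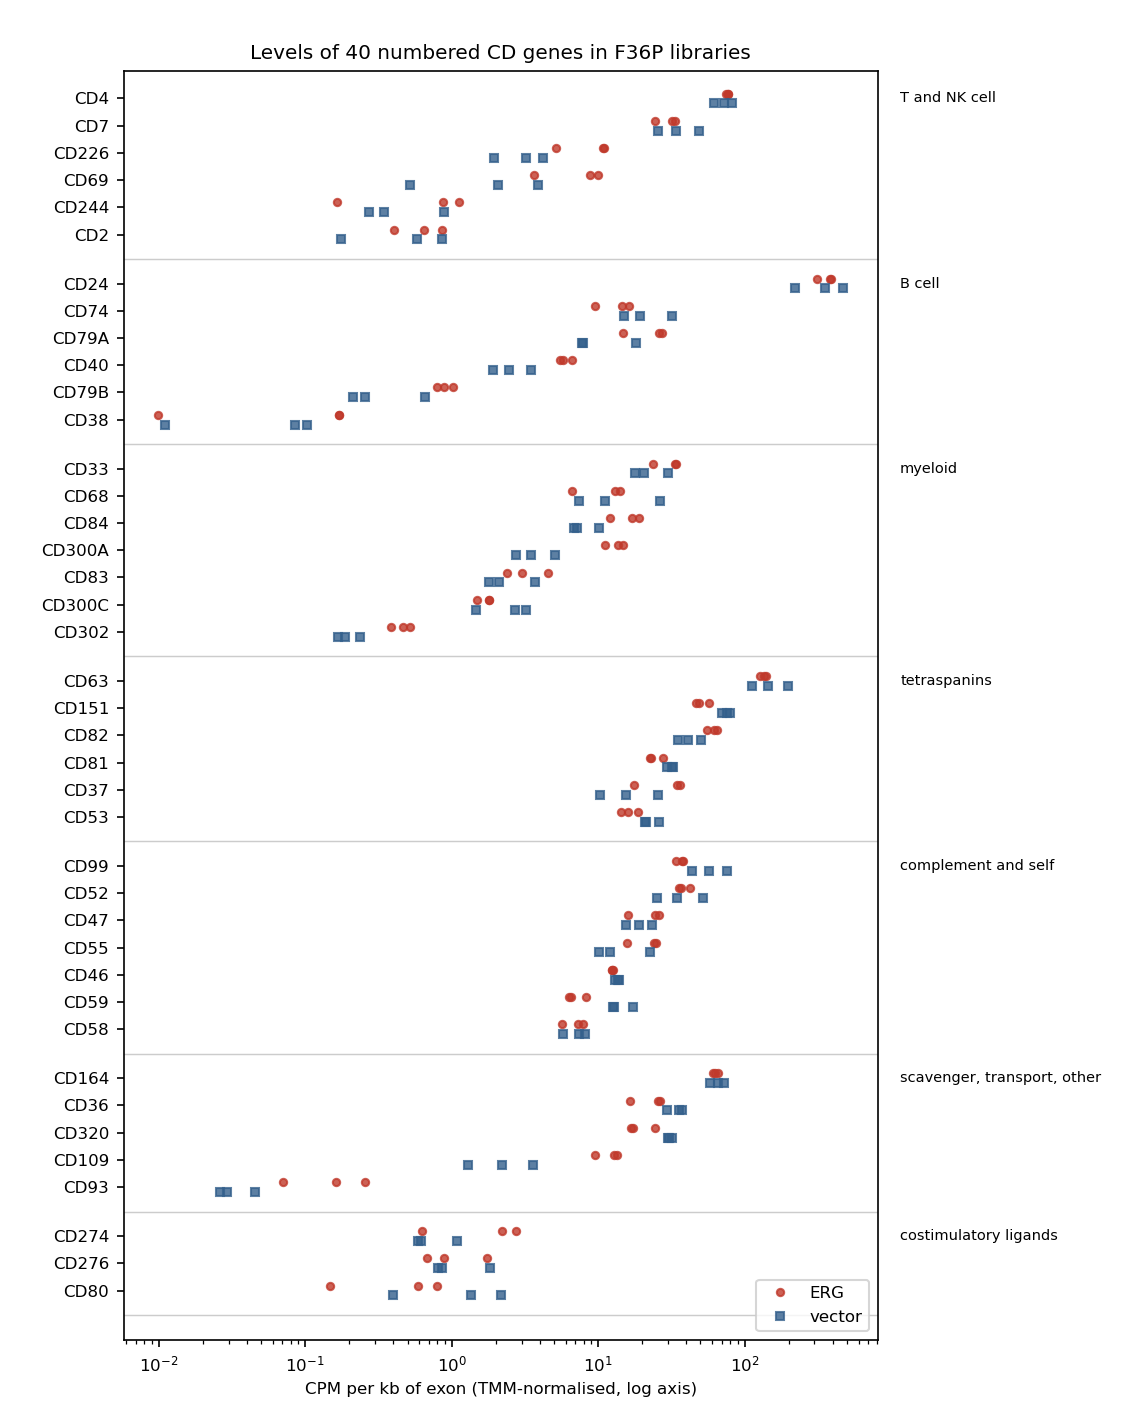
CPM per kb of exon on a log axis for each of the 40 genes, grouped by role and ordered by level within a role, with 3 ERG libraries (circles, upper) and 3 vector libraries (squares, lower) per gene. CD24, CD63, CD4 and CD164 lie at the high end in both groups, and CD38 and CD93 at the low end.

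CD109 and CD300A rose with ERG and CD59 fell. These 3 of 38 tested genes (7.89%) passed edgeR's quasi-likelihood test at an adjusted p under 0.05, against 2.2% of all 14203 tested genes. The 2 that rose are 5.26% of the 38, against 1.47% of all genes, and the 1 that fell is 2.63%, against 0.732%. The median log2 fold change of the 38 was 0.07, against -0.01 over all tested genes, with 21 positive and 17 negative values. All 3 ERG libraries lay above all 3 vector libraries for 8 of the 38 (21.1%) and below them for another 8 (21.1%), against 12.3% and 9.54% of all tested genes. Among the 8 above, CD302 reached 1 CPM in 0 vector libraries. It entered the test only through the ERG libraries, so its lack of overlap is no support.

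The 3 calls held in edgeR without ERG replicate 3 and without vector replicate 1. Without ERG replicate 1, without ERG replicate 2, without vector replicate 2 or without vector replicate 3, edgeR called 0 of the 38. An unadjusted p under 0.05 was reached by 12, 12, 14 and 16 of them in these fits, against 9%, 8.84%, 11.7% and 12.8% of all tested genes. With ERG replicates 1 and 2 summed edgeR also called 0, and 12 had an unadjusted p under 0.05, against 8.99% of all tested genes. With all 6 libraries that share was 17 of the 38, against 15.9% of all tested genes. DESeq2 called CD109, CD300A and CD59 each time a library was left out.

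**Figure D2:**
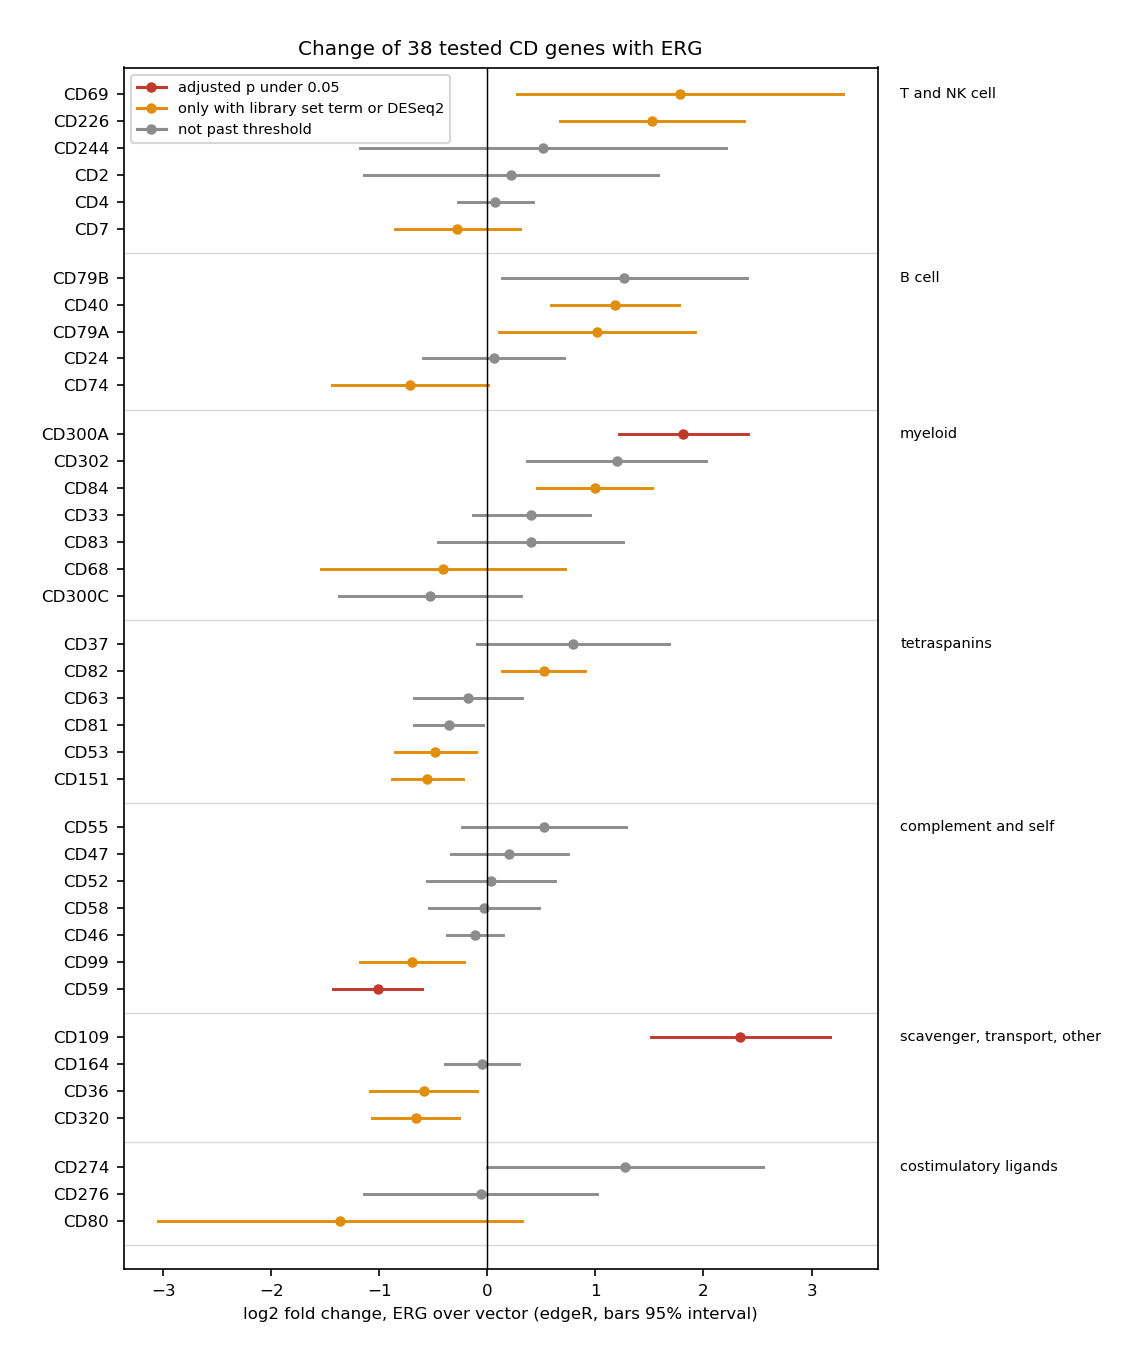
Log2 fold change, ERG over vector, of the 38 tested genes by role, with 95% intervals from edgeR. CD109 (2.34), CD300A (1.81) and CD59 (-1.02) passed the threshold, and another 15 genes did so with the library set term or in DESeq2.

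CD109 is a GPI-anchored protein of the alpha-2-macroglobulin family, found on activated T cells, platelets and some CD34+ progenitors. It stood at 126, 132 and 92.5 CPM in ERG libraries and at 34.9, 12.7 and 21.6 CPM in vector libraries. Every ERG library was above every vector library by a wide margin. The mean was 117 ± 21.3 CPM with ERG against 23.1 ± 11.2 CPM with vector (SD, n = 3 each; later means are given alike), a 5.07-fold rise (log2 2.34, SE 0.35, edgeR adjusted p = 0.0245). Its locus is chr6:73695785-73828316 (hg38). Within set A the log2 difference was 1.87 and within set B 2.44.

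CD300A is an inhibitory receptor of the immunoglobulin superfamily on myeloid, mast and NK cells. Its levels were 37.1, 40.2 and 30.2 CPM in ERG libraries and 13.8, 7.39 and 9.39 CPM in vector libraries, again without overlap. It rose 3.52-fold (35.9 ± 5.14 CPM with ERG against 10.2 ± 3.29 CPM with vector, log2 1.81, SE 0.26, edgeR adjusted p = 0.0206), with log2 differences of 1.45 in set A and 1.80 in set B. CD300C, an activating receptor whose gene lies 56.3 kb away on chromosome 17, averaged 2.58 ± 0.267 CPM with ERG and 3.75 ± 1.38 CPM with vector. This log2 difference of -0.53 did not pass (95% interval -1.37 to 0.31, edgeR adjusted p = 0.515). The neighbouring pair therefore had opposite signs, and the difference between the genes was not tested.

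CD59 is the GPI-anchored inhibitor of the complement membrane attack complex, on which red cells rely. It was at 65.8, 67.8 and 85.1 CPM in ERG libraries and at 130, 178 and 134 CPM in vector libraries. The groups did not overlap, and vector replicate 2 was the highest library. The fall was 2.02-fold (72.9 ± 10.6 CPM with ERG against 147 ± 26.7 CPM with vector, log2 -1.02, SE 0.18, edgeR adjusted p = 0.0363), with log2 differences of -0.96 in set A and -0.86 in set B. CD59 (chromosome 11, 33703010 to 33736491) shares 629 exon bases with AL049629.2, annotated as protein-coding on the same strand.

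**Figure D3:**
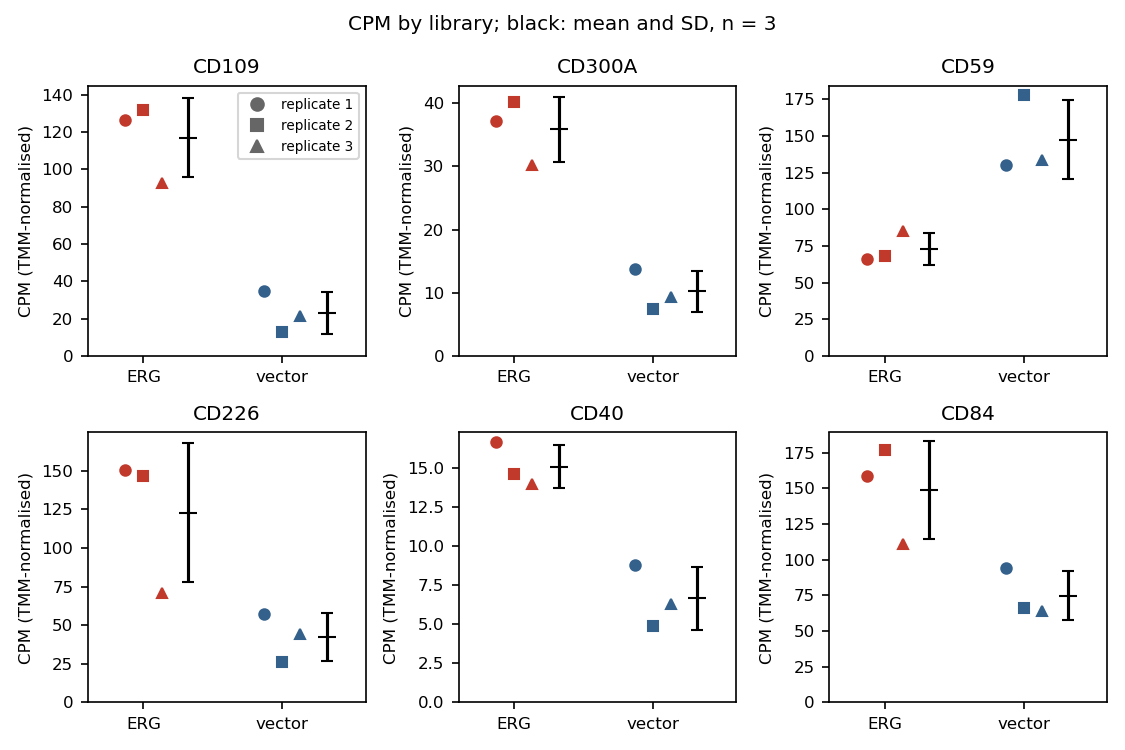
CPM in each library for CD109, CD300A, CD59, CD226, CD40 and CD84, with ERG left and vector right; symbols are replicates 1 to 3 and black marks the mean and SD. In each panel the 3 ERG libraries lie on 1 side of the 3 vector libraries, below them for CD59 and above them for the others.

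The stretches before the starts of CD300A, which rose, and CD59, which fell, are shown with that of CD33, which did not pass, to set the 3 responses beside their promoter letters. Each is the 250 bases before a RefSeq start (GRCh38.p14), at chr17:74466123-74466372 (plus strand), chr11:33736480-33736729 (minus strand) and chr19:51224830-51225079 (plus strand). Capitals mark AGGAAG, a form of the GGAA core that ETS factors bind, or its reverse complement CTTCCT.
CD300A: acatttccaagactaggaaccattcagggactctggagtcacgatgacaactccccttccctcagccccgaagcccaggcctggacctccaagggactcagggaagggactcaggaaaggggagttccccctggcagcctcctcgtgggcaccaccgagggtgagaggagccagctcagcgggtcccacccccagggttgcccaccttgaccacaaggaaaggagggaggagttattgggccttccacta
CD59: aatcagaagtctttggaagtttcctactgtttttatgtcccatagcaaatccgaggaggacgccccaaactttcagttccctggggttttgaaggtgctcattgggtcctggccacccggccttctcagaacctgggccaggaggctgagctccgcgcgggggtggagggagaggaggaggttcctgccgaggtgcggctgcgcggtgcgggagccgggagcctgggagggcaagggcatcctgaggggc
CD33: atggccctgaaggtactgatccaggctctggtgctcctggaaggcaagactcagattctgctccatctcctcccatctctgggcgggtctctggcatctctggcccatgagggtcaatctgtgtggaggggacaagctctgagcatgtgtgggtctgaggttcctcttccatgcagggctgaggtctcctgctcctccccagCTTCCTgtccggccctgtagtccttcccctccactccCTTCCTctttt
CD33 held 2 matches, and the windows of CD300A and CD59 shown here held 0. RefSeq gave 53 such windows for 29 of the 40 genes, and 19 of them held AGGAAG on either strand, against 28.7% of 34961 windows of the same length over all genes. CCGGAAG was in 3 of the 53, against 8.52% of all windows. The GATA letters AGATAA and TGATAA were in 1 and 3 of the 53, against 9.18% and 6.63%. CD300A has a second start whose window holds AGGAAG at 100 and 48 bases before it, and several genes have starts in more than 1 place. Which start F36P cells use was not measured, and a match is not a binding site.

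Among T and NK cell antigens 0 of 6 tested genes passed in edgeR, while 2 had an unadjusted p under 0.05, against 15.9% of all tested genes. DESeq2 called 1 of the 6, against 1006 of all 14203 tested genes. The log2 differences of the 6 were positive in 5 (median 0.36), against 6941 of all 14203 tested genes. CD226, an activating receptor of T cells, NK cells and platelets, was at 151, 147 and 70.9 CPM in ERG libraries and 57.3, 26.4 and 44.1 CPM in vector libraries. The groups did not overlap, with ERG replicate 3 nearest to the vector libraries. Its 2.88-fold difference (log2 1.53, SE 0.36) missed the threshold in edgeR (adjusted p = 0.0873), passed in DESeq2 (adjusted p = 0.00185) and passed with the set term (adjusted p = 0.00225). CD69, an early activation antigen that platelets also carry, was at 28.4, 24.7 and 10.4 CPM in ERG libraries and 11.003, 5.86 and 1.47 CPM in vector libraries. ERG replicate 3 lay below vector replicate 1, so the groups overlapped (log2 1.78, SE 0.65, edgeR adjusted p = 0.237, or 0.0277 with the set term and 0.0634 with ERG replicates 1 and 2 summed as well).

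CD7 is a T and NK cell antigen that acute myeloid leukaemias can also carry. It was at 87.0, 91.7 and 66.7 CPM in ERG libraries and 134, 70.4 and 93.3 CPM in vector libraries. The groups overlapped, and the log2 difference of -0.28 did not pass (95% interval -0.86 to 0.30, edgeR adjusted p = 0.618). With the set term it was -0.44 (adjusted p = 0.0452), a call lost with ERG replicates 1 and 2 summed as well (adjusted p = 0.14). Without vector replicate 1 the log2 difference in edgeR was -4.6e-04. CD4 averaged 349 ± 6.66 CPM with ERG and 332 ± 46.3 CPM with vector (log2 0.07, SE 0.15, 95% interval -0.27 to 0.42, edgeR adjusted p = 0.834). The NK receptor CD244 and the adhesion molecule CD2 were low, at 2.07 ± 1.42 and 1.07 ± 0.381 CPM with ERG and 1.44 ± 0.968 and 0.903 ± 0.58 CPM with vector. The T cell receptor chains CD3D, CD3E and CD3G match the naming rule but had no row.

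B cell antigens gave 0 calls among 5 tested genes in edgeR, with a median log2 difference of 1.02. At an unadjusted p under 0.05 there were 3 of 5, against 15.9% of all tested genes. DESeq2 called 1 of the 5, against 1006 of all 14203 tested genes. CD79A and CD79B form the signalling dimer of the B cell receptor. CD79A was at 41.0, 39.3 and 22.3 CPM in ERG libraries and 27.3, 11.8 and 11.6 CPM in vector libraries. Vector replicate 1 lay above ERG replicate 3, so the groups overlapped. The 2.02-fold difference (log2 1.02, SE 0.39, 95% interval 0.11 to 1.92) missed the threshold (edgeR adjusted p = 0.263) and was called once the set term was included (log2 0.73, adjusted p = 0.00548). Its partner CD79B had only 27, 24 and 27 counts in ERG libraries and 5, 7 and 14 counts in vector libraries, near 1 CPM. The log2 difference of CD79B was 1.27 (SE 0.49, edgeR adjusted p = 0.264), and it shares 288 exon bases with another gene on its strand. Per length, CD79A was at 22.8 CPM per kb in ERG and 11.3 in vector libraries, and CD79B at 0.896 in ERG and 0.375 in vector libraries.

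CD40, the receptor of T cell help on B cells, dendritic cells and platelets, was at 16.7, 14.6 and 14.0 CPM in ERG libraries and 8.80, 4.87 and 6.26 CPM in vector libraries. All ERG libraries lay above all vector libraries. The 2.27-fold difference (log2 1.18, SE 0.25) had an adjusted p of 0.067 in edgeR, 0.00139 in DESeq2 and 0.00634 with the set term. CD74, the chaperone of MHC class II molecules, was at 46.1, 51.8 and 30.2 CPM in ERG libraries and 101, 48.2 and 61.4 CPM in vector libraries. The groups overlapped, and the log2 difference of -0.72 (SE 0.31, edgeR adjusted p = 0.316) missed the threshold, while the set term gave -0.96 (adjusted p = 9.6e-04). Of 7 tested class II partners of CD74, 0 passed in edgeR and 3 had an unadjusted p under 0.05 (15.9% of all tested genes). DESeq2 called 1 of the 7, against 1006 of all 14203 tested genes. The median log2 difference of the 7 was -1.23. HLA-DQB1 (log2 -2.73), which is 1 of these 3 and part of the median, reached 1 CPM in 0 ERG libraries. It entered the test only through the vector libraries in which it is high, so the count and the median are no support. The most abundant of the partners, the class II promoter factor RFX5, averaged 80.9 CPM with ERG and 78.5 CPM with vector. CD24 averaged 1121 ± 131 CPM with ERG and 1077 ± 390 CPM with vector (log2 0.06, SE 0.28, 95% interval -0.60 to 0.71, edgeR adjusted p = 0.935). CD38, an ectoenzyme of plasma cells and progenitors, had 15, 17 and 1 counts in ERG and 8, 1 and 6 counts in vector libraries and was not tested.

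Of 7 tested myeloid, monocyte and dendritic cell antigens, 1 rose, CD300A, and 0 fell, against 1.47% and 0.732% of all tested genes. Their median log2 difference was 0.41. CD84, a self-binding receptor of the SLAM family on mast cells, platelets and lymphocytes, was at 158, 177 and 111 CPM in ERG libraries and 94.4, 66.3 and 63.7 CPM in vector libraries. The groups did not overlap. CD84 was 1.99-fold higher on average (log2 0.99, SE 0.23), with an adjusted p of 0.0792 in edgeR, 0.00417 in DESeq2 and 4.99e-04 with the set term. CD244, a SLAM receptor whose gene lies 251 kb away on chromosome 1, had a log2 difference of 0.51 (95% interval -1.18 to 2.20). CD33, the inhibitory lectin used as a target in myeloid leukaemia, was at 202, 199 and 142 CPM in ERG libraries and 179, 122 and 108 CPM in vector libraries. The groups overlapped (log2 0.41, 95% interval -0.14 to 0.95, edgeR adjusted p = 0.449).

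The macrophage lysosomal protein CD68 was at 28.5, 30.7 and 14.5 CPM in ERG libraries and 57.7, 24.4 and 16.1 CPM in vector libraries. Within each group the libraries of set A were the highest (log2 -0.41 in edgeR, adjusted p = 0.707, against -0.74, adjusted p = 0.0216, with the set term and adjusted p = 0.0724 with ERG replicates 1 and 2 summed as well). Without vector replicate 1 the difference was positive (0.28). CD68 shares 1789 exon bases with another annotated transcript on its strand. CD83, a marker of mature dendritic cells, was at 8.36 ± 2.80 CPM with ERG and 6.36 ± 2.57 CPM with vector. The lectin-like receptor CD302 averaged 1.86 ± 0.269 CPM with ERG and 0.805 ± 0.147 CPM with vector. CD302 reached 1 CPM in all ERG and in 0 vector libraries, so it entered the test through the group in which it is high, and its difference was not called (edgeR adjusted p = 0.152). It also shares exon bases with MARCH7 on the opposite strand and with LY75-CD302 on its own.

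Tetraspanins, which organise other proteins in the membrane, gave 0 calls among 6 tested genes in edgeR. At an unadjusted p under 0.05 there were 4 (15.9% of all tested genes). DESeq2 called 1 of the 6, against 1006 of all 14203 tested genes. CD151, a partner of laminin-binding integrins that carries the Raph blood group, was at 192, 185 and 225 CPM in ERG libraries and 311, 299 and 274 CPM in vector libraries. All ERG libraries lay below all vector libraries. The log2 difference was -0.55 (SE 0.14), with an adjusted p of 0.102 in edgeR, 0.0027 in DESeq2 and 0.00898 with the set term. CD81, a tetraspanin of B cells and many other cells, was at 168, 171 and 204 CPM in ERG libraries and 237, 240 and 219 CPM in vector libraries (log2 -0.36, edgeR adjusted p = 0.259). CD53, a leukocyte tetraspanin, was at 30.7, 34.3 and 40.1 CPM in ERG libraries and 56.1, 45.4 and 45.2 CPM in vector libraries (log2 -0.48, edgeR adjusted p = 0.2, just under the threshold of 0.05 with the set term and 0.153 with ERG replicates 1 and 2 summed as well). For CD81 and CD53 the groups did not overlap.

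CD82 ran the other way, at 252, 262 and 225 CPM in ERG libraries and 168, 204 and 143 CPM in vector libraries. The difference was 0.52 on the log2 scale (SE 0.16, edgeR adjusted p = 0.177, or 0.0423 with the set term and 0.109 with ERG replicates 1 and 2 summed as well), and the groups did not overlap. CD37, of mature B cells, was at 123 ± 42.9 CPM with ERG and 71.1 ± 32.4 CPM with vector (log2 0.79, edgeR adjusted p = 0.37). CD63 averaged 353 ± 16.3 CPM with ERG and 399 ± 114 CPM with vector, with a log2 difference of -0.18 (SE 0.21, 95% interval -0.68 to 0.32, edgeR adjusted p = 0.714). Of 13 tested tetraspanins with other names, 1 rose and 0 fell, against 1.47% and 0.732% of all tested genes. The 1 that rose was the platelet tetraspanin TSPAN9 (log2 2.63, SE 0.30, edgeR adjusted p = 0.0124). It was at 8.05, 9.19 and 7.67 CPM in ERG libraries and 0.968, 1.29 and 1.76 CPM in vector libraries.

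Complement regulators and broadly expressed self or adhesion proteins gave 1 fall, CD59, and 0 rises among 7 tested genes. Over all tested genes, 0.732% fell and 1.47% rose. CD55, which speeds the decay of complement convertases and carries the Cromer blood group, was at 147, 142 and 93.3 CPM in ERG libraries and 134, 71.6 and 59.7 CPM in vector libraries (log2 0.53, 95% interval -0.23 to 1.28, edgeR adjusted p = 0.476). The cofactor protein CD46 was at 109 ± 1.01 CPM with ERG and 118 ± 4.12 CPM with vector (95% interval of the log2 difference -0.38 to 0.14). The 3 membrane complement inhibitors thus had log2 differences of -1.02, 0.53 and -0.12, and the differences between them were not tested.

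CD99, an adhesion protein of leukocyte migration, was at 188, 182 and 166 CPM in ERG libraries and 372, 281 and 217 CPM in vector libraries. The groups did not overlap. The log2 difference of -0.70 (SE 0.21) had an adjusted p of 0.15 in edgeR, 0.0343 in DESeq2 and 0.00348 with the set term. CD47, the signal that protects red cells from phagocytosis, was at 182 ± 44.6 CPM with ERG and 158 ± 33.5 CPM with vector (95% interval of the log2 difference -0.34 to 0.75). CD52, a short glycopeptide of lymphocytes, averaged 35.7 ± 3.18 CPM with ERG and 34.8 ± 12.6 CPM with vector. CD58, the ligand of CD2, averaged 12.4 ± 2.08 CPM with ERG and 12.7 ± 2.21 CPM with vector.

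In the group of scavenger, transport, sialomucin and endothelial proteins, CD109 rose and 0 of 4 tested genes fell. Over all tested genes, 1.47% rose and 0.732% fell. CD36, the fatty acid and thrombospondin receptor of platelets, monocytes and erythroid precursors, was at 288, 277 and 179 CPM in ERG libraries and 409, 388 and 322 CPM in vector libraries. All ERG libraries lay below all vector libraries (log2 -0.59, SE 0.21, edgeR adjusted p = 0.233, or 0.00417 with the set term). CD320, the receptor that takes up vitamin B12 bound to transcobalamin, was at 38.2, 39.2 and 55.8 CPM in ERG libraries and 69.7, 72.7 and 68.8 CPM in vector libraries. Again no libraries overlapped (log2 -0.66, SE 0.17), and the adjusted p was 0.108 in edgeR, 0.015 in DESeq2 and 0.0111 with the set term. CD164 averaged 453 ± 16.9 CPM with ERG and 470 ± 53.4 CPM with vector (log2 -0.05, SE 0.15, 95% interval -0.39 to 0.29, edgeR adjusted p = 0.883). CD93, of endothelial and early progenitor cells, had 22, 16 and 7 counts in ERG libraries and 2, 4 and 2 counts in vector libraries and was not tested.

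Costimulatory and checkpoint ligands were all low and gave 0 calls among 3 tested genes in edgeR. DESeq2 also called 0, against 1006 of all 14203 tested genes. The edgeR test gave 0 at an unadjusted p under 0.05, against 15.9% of all tested genes. CD274, the ligand PD-L1, was at 11.3, 9.05 and 2.58 CPM in ERG libraries and 4.49, 2.44 and 2.54 CPM in vector libraries. The 2 high values came from ERG replicates 1 and 2, and the log2 difference was 1.09 in set A and 0.04 in set B (edgeR adjusted p = 0.316). CD80, a ligand of CD28, was at 1.88, 2.54 and 0.475 CPM in ERG libraries and 6.95, 4.34 and 1.27 CPM in vector libraries (log2 -1.37, SE 0.72, edgeR adjusted p = 0.41, or 0.0262 with the set term and 0.0564 with ERG replicates 1 and 2 summed as well). CD80 shares 798 exon bases with TIMMDC1 on the opposite strand, and without strand information their reads cannot be told apart. CD276, the ligand B7-H3, averaged 6.14 ± 3.15 CPM with ERG and 6.44 ± 3.15 CPM with vector (log2 -0.06, SE 0.46, 95% interval -1.14 to 1.01, edgeR adjusted p = 0.958).

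Counting the calls by fit, 8 of the 38 genes (21.1%) were higher and 10 (26.3%) lower with the set term, against 7.2% and 5.96% of all tested genes. With ERG replicates 1 and 2 also summed, 6 were higher and 6 lower, against 4.04% and 3.01% of all tested genes. DESeq2 called 5 higher (13.2%) and 4 lower (10.5%), against 4.2% and 2.89%. The 5 were CD109, CD300A, CD226, CD40 and CD84, and the 4 were CD59, CD99, CD151 and CD320. Without ERG replicate 1, DESeq2 called 3 of the 38, CD109, CD300A and CD59, against 410 of all 14203 tested genes. Without ERG replicate 2 it called these and CD40, against 411 of all tested genes. CD226, CD84, CD99, CD151 and CD320 were called in neither of these fits. The set term added CD79A, CD69 and CD82 as higher, and CD36, CD53, CD74, CD80, CD68 and CD7 as lower. Of these 9, CD79A, CD36 and CD74 were still called with the replicates summed, and CD69, CD82, CD53, CD80, CD68 and CD7 were not. Since the sets were defined from these libraries and ERG replicates 1 and 2 are so alike, p-values with the set term may be too low. Within the sets, 15 of the 38 differences were positive in both, 15 were negative in both and 8 had opposite signs. The same signs were not counted over all tested genes, so no conclusion is drawn from these counts.

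**Figure D4:**
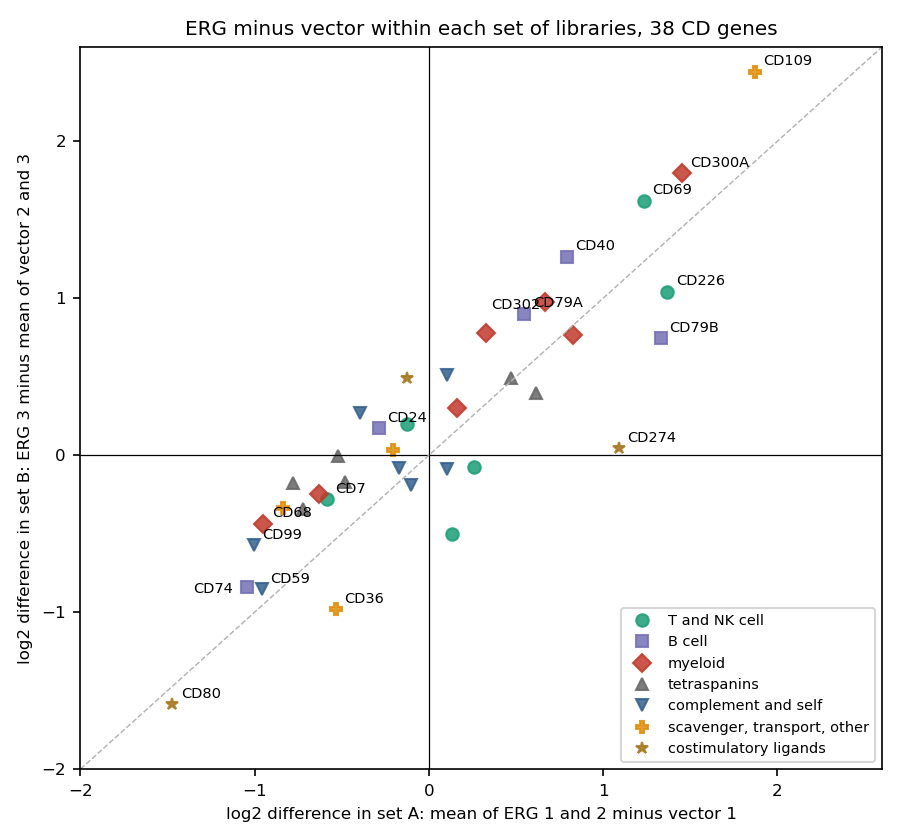
Log2 difference within set A (mean of ERG replicates 1 and 2 minus vector replicate 1) against the same within set B (ERG replicate 3 minus the mean of vector replicates 2 and 3), for 38 genes, on log2(CPM + 0.5); the dashed line marks equal values. CD109 and CD300A lie at the upper right, CD80 at the lower left, and CD274 is high in set A and near 0 in set B.

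Surface antigens with other gene names, listed by lineage, moved as follows in the same fit. Of 9 tested platelet antigens 6 passed as higher and 0 as lower in edgeR, against 1.47% and 0.732% of all tested genes. GP5, SELP and CLEC1B, 3 of the 6, reached 1 CPM in 0 vector libraries and entered the test only through the ERG libraries in which they are high, so their calls are no support; of the other 6 genes 3 rose. By the fitted log2 difference, which depends on the prior count for genes this near 0, SELP, the granule selectin, and CLEC1B, the podoplanin receptor, came first. SELP was at 12.7, 12.1 and 2.38 CPM in ERG libraries and 0.352, 0 and 0.0978 CPM in vector libraries. CLEC1B was at 3.21, 1.92 and 1.02 CPM in ERG libraries and 0.088, 0 and 0 CPM in vector libraries. The summed level of the 9 platelet antigens was 1447 to 2631 CPM in ERG and 578 to 1226 CPM in vector libraries. ITGA2B was the largest part, at 1717, 1732 and 1039 CPM in ERG libraries and 1083, 487 and 715 CPM in vector libraries. Its groups overlapped, and it did not pass (edgeR adjusted p = 0.209). The platelet sums also include GP5, SELP and CLEC1B, so they are no support. Of 15 red cell antigens 2 fell and 0 rose, against 0.732% and 1.47% of all tested genes. The 2 were EPOR (log2 -1.30, SE 0.13, edgeR adjusted p = 0.01) and the chemokine receptor ACKR1, which carries the Duffy blood group (log2 -1.04, SE 0.18, edgeR adjusted p = 0.0376). The 15 red cell antigens summed to 2516 to 3452 CPM in ERG and 4161 to 5256 CPM in vector libraries. The transferrin receptor TFRC was the largest part of these sums, with means of 1073 CPM with ERG and 2175 CPM with vector. Its groups overlapped, with ERG replicate 3 at 1724 CPM and vector replicate 1 at 1175 CPM.

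Of 9 stem, progenitor and mast cell antigens 3 rose and 0 fell, against 1.47% and 0.732% of all tested genes. Among the 3 was the IgE receptor chain MS4A2 (log2 5.02, edgeR adjusted p = 0.01). Of 9 granulocyte and monocyte antigens 0 passed in edgeR and 4 had an unadjusted p under 0.05 (15.9% of all tested genes). DESeq2 called 1 of these 9, against 1006 of all 14203 tested genes. ITGAM, an integrin chain, was highest in mean CPM over all 6 libraries, though not in the vector libraries alone, with 245 ± 56.9 CPM with ERG and 78.4 ± 43.3 CPM with vector (edgeR adjusted p = 0.0865). Of 6 T and NK cell antigens 0 passed in edgeR and 2 had an unadjusted p under 0.05 (15.9% of all tested genes). DESeq2 called 1 of these 6, against 1006 of all 14203 tested genes. SPN, leukosialin, was highest in mean CPM with 768 ± 102 CPM with ERG and 648 ± 88.3 CPM with vector. Of 12 B cell markers CR2, the receptor of complement fragment C3d, had a row, at 0.459 ± 0.178 CPM with ERG and 1.44 ± 0.635 CPM with vector, and was not tested. The T and NK cell, B cell and myeloid genes with CD names summed to 502 to 622, 1038 to 1313 and 313 to 457 CPM in ERG libraries and 390 to 584, 745 to 1598 and 212 to 356 CPM in vector libraries. The part of a change in cell composition in any of these differences was not tested.

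**Figure D5:**
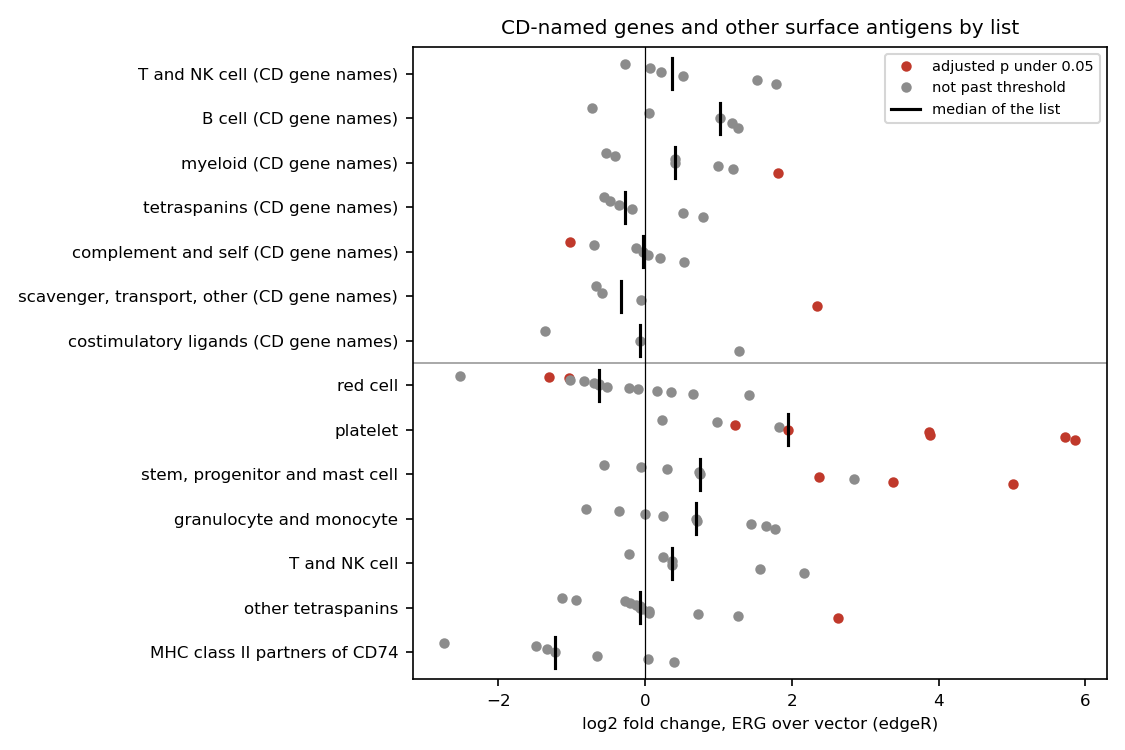
Log2 fold change, ERG over vector, of each tested gene by list, with numbered CD genes above the line and other surface antigens below it; black bars are medians. Platelet antigens have a median of 1.95, red cell antigens -0.62, and the lists of numbered CD genes lie between -0.32 and 1.02. The platelet median includes GP5, SELP and CLEC1B, which entered the test only through the ERG libraries, so it is no support.

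Some of the genes share a membrane anchor or a place on a chromosome. Of the GPI-anchored proteins, 5 were put together with their values known, and the list may not be complete. They differed by a log2 of 2.34 for CD109, 0.53 for CD55, 0.06 for CD24, 0.04 for CD52 and -1.02 for CD59. The 4 pairs of genes within 1000 kb of each other were compared by their values alone. Besides CD300A with CD300C and CD84 with CD244, these were CD55 with CD46, 365 kb apart (log2 0.53 and -0.12), and CD2 with CD58, 183 kb apart (log2 0.21 and -0.03). Exons of CD151, CD226, CD37 and CD52 overlap those of POLR2L, DOK6, TEAD2 and UBXN11 on the opposite strand by 257, 112, 319 and 25 bases, and those counts are uncertain to that extent.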

How the data were processed

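Messenger RNA selected by its poly(A) tail was sequenced in 3 ERG and 3 vector libraries, per the labels' protocols. The submitters' processing notes name the build hg38 and the tool edgeR 3.32.1. The aligner, the counting tool and the strand setting are not given in the sources used here. The deposited table holds whole-number read counts, although its name speaks of CPM. Its lowest second-highest CPM was 1.01, so low genes had been left out. The control columns, headed NC in the table, were taken as vector, the only group besides ERG. No column was left unused (0 columns).

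EdgeR 4.0.16 (R 4.3.3) was fitted to every gene that reached 1 CPM in 3 or more libraries, with TMM and the two-sided quasi-likelihood test. The Benjamini-Hochberg adjustment ran over 14203 genes, with a threshold of 0.05. The SE is the log2 fold change divided by the square root of F. Within-set differences used log2(CPM + 0.5). DESeq2 1.42.0 and other designs served as alternatives. Both tools were tested on simulated counts. Coordinates and exon lengths come from GENCODE release 29, and promoters from RefSeq (GRCh38.p14).

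Members and lists were chosen with earlier results of these data known. Full statistics went to members past the threshold in edgeR, DESeq2 or the set model, to CD7 and CD79A, and to the member with the highest mean CPM of each role. From each other list up to 2 called genes with the largest changes were named, or else the most abundant. A gene that this rule names is not reported here.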

Additional observations from a re-analysis of the deposited data

How the results depend on the processing

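With all 6 libraries, edgeR called 313 genes, 2 of the numbered CD genes higher and 1 lower. DESeq2 size factors in edgeR (310 genes) and no filter on low counts (321 genes) kept both counts of CD genes. DESeq2 called 1006 genes, with 5 CD genes higher and 4 lower. The set term gave 1869 genes, with 8 higher and 10 lower. The set term with ERG replicates 1 and 2 summed, chosen after seeing the data, gave 1001 genes, with 6 higher and 6 lower. Summing these replicates without the set term gave 0 genes, 0 higher and 0 lower (1277 genes at an unadjusted p under 0.05 in edgeR, and 12 CD genes). Leaving out each library in turn gave 0 to 1707 genes over edgeR and, added after seeing the data, DESeq2, with 0 to 10 CD genes higher and 0 to 5 lower. By library, edgeR called 0, 0 and 441 genes without ERG replicates 1, 2 and 3, and 441, 19 and 51 without vector replicates 1, 2 and 3; DESeq2 called 410, 411 and 1707, and 1493, 561 and 676. The cause was not tested.

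With the replicate number as a block, 905 genes passed, with 8 CD genes higher and 3 lower. The numbers are not known to pair the samples: deviations of same-numbered libraries from their group means correlated at 0.65, -0.31 and 0.61 over the tested genes.

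Among the CD genes given with full statistics, 0 changed sign while past the threshold under these alternatives. Genes near 1 CPM (CD2, CD244, CD79B, CD302) are limited by depth.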
